A study of Rattus norvegicus with 22 samples.

Results

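The regions described here were called open in all 3 drug-treated ATAC libraries of rat prefrontal cortex and had no called interval in the control library. ATAC sequencing maps open chromatin from the places where a transposase can insert adapters into nuclear DNA. The series deposited 4 such libraries from male Sprague-Dawley rats, 1 library for each treatment: control, WIN, cocaine, and WIN with cocaine. WIN is a synthetic cannabinoid receptor agonist, given here in adolescence per the series title, and cocaine is a psychostimulant that blocks the dopamine transporter. The labels give no dose, no age and no number of animals behind a library, and nothing says what the control rats received. The authors called intervals (peaks) in each library and joined them into 99896 active regions. Of these, 4663 held at least 1 interval from each of the WIN, cocaine and WIN+cocaine libraries and none from the control library, which is 4.67% of all active regions (95% Wilson interval 4.54% to 4.80%). The members were chosen by the presence and absence of intervals in these same 4 libraries, so their scores, widths and numbers are given as a description and were not tested. With 1 library a treatment, the treatment and the library cannot be told apart.

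Open chromatin in brain tissue is found mostly at promoters and at enhancers, the distal elements where transcription factors bind and displace nucleosomes. In cortex, strong promoters tend to be open in most cell types, whereas many enhancers are open in only one class of neuron or glia. Neuronal activity and psychostimulants are known to open some enhancers through activity-induced factors such as the AP-1 family. A peak call is a decision at a threshold. An interval missing from the control library therefore means that the signal did not reach the caller's threshold there, not that the chromatin was closed. In bulk tissue, fewer open cells and less open chromatin per cell cannot be told apart. The tissue label was not checked against marker genes, because the tracks carry no gene names. The only reference at hand, RefSeq on GRCr8, does not match the tracks: on 15 of 22 chromosomes the last active region ends beyond the last annotated gene. No gene, promoter or sequence is therefore attached to a region, and positions are those written in the tracks.

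Most members were weak intervals in the 3 drug-treated libraries. Each interval carries a summit score on the authors' own scale, which ran from 14 to 1369 in the control library and from 14 to 794 in the WIN+cocaine library. In the WIN library the members' scores ran from 14 to 111. Their median was 27, and that of all WIN intervals was 37. In the cocaine library they ran from 15 to 188, and the median was 30 against 39 for all cocaine intervals. In the WIN+cocaine library they ran from 15 to 206, again with 30 as the median against 39. The middle 50% of members lay between 23 and 34 in WIN, between 25 and 37 in cocaine and between 24 and 37 in WIN+cocaine, so in each library the median over all intervals was above the members' upper quartile.

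Scores were also placed within their own library. The percentile rank of an interval is the percentage of its own library's intervals that score lower, with ties counted at their middle. The lists differ in length (70942 intervals in WIN, 76590 in cocaine, 76884 in WIN+cocaine), and the lowest score is 14 in each. The same score has a somewhat different rank in each list: a score of 22 ranks 11.1 in WIN, 8.84 in cocaine and 9.11 in WIN+cocaine. Small rank differences between libraries therefore show no change. The members' median rank was 26.2 in WIN, 31.0 in cocaine and 31.2 in WIN+cocaine. Regions with intervals in all 4 libraries, 49737 in number, had median ranks of 63.6, 66.0 and 66.0 in the same libraries. The 4154 regions that lacked only WIN also ranked low, with medians of 26.3 in control, 28.5 in cocaine and 31.2 in WIN+cocaine. All 3 ranks were under 50 in 3123 members (67.0%) and all 3 were at least 50 in 328 members (7.03%), beside 7.05% of the regions lacking only WIN. Only 29 members ranked at 75 or higher in all 3. At ranks of 90 and above the members had 3 intervals in WIN, 3 in cocaine and 5 in WIN+cocaine.

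**Figure D1:**
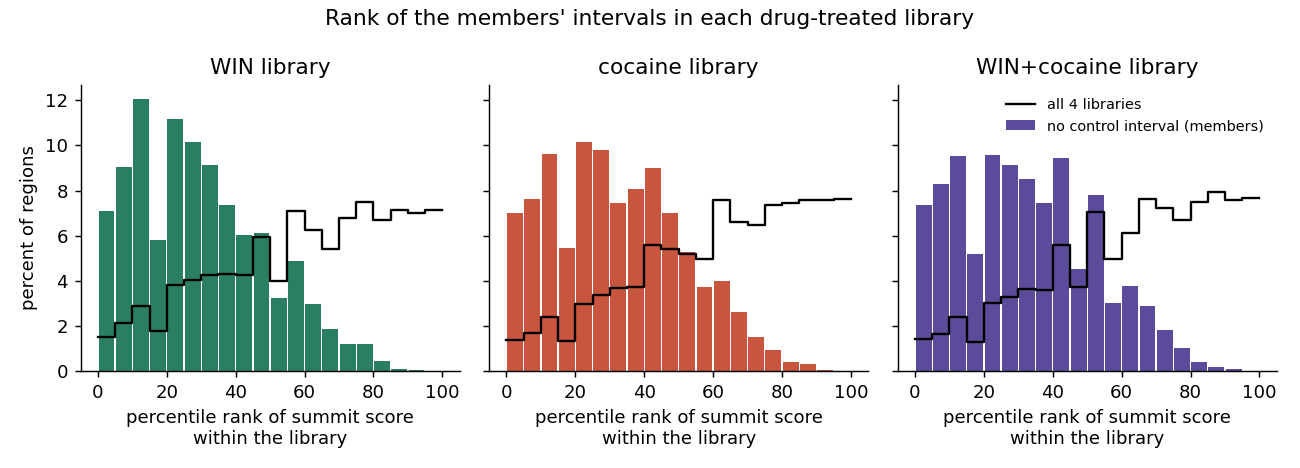
Bars give the percentage of the 4663 members (y axis) in each 5-point bin of percentile rank (x axis) in the WIN, cocaine and WIN+cocaine libraries, and the black line gives the same for the 49737 regions open in all 4 libraries. The members crowd the low ranks, with medians of 26.2, 31.0 and 31.2, whereas the regions of all 4 libraries lie mostly above rank 50; the uneven bars at low ranks come from whole-number scores.

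A small number of members were strong. The 6 whose weakest drug-treated library ranked highest are given in full, each with no control interval by definition. ActReg_92574, on chromosome 9 from 8378272 to 8378621, had a summit score of 101 in WIN, 111 in cocaine and 106 in WIN+cocaine. It was the only member to rank above 90 in all 3 libraries, at 90.8, 91.5 and 90.7, and the 3 summits lay at the same position. ActReg_35150, on chromosome 17 from 38205229 to 38205595, scored 95 in WIN, 95 in cocaine and 104 in WIN+cocaine. ActReg_14801, on chromosome 11 from 58080662 to 58080958, scored 100 in WIN, 91 in cocaine and 86 in WIN+cocaine. The 3 libraries were close to one another at these loci.

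ActReg_19323, on chromosome 13 from 60851577 to 60851860, scored 74 in WIN, 98 in cocaine and 84 in WIN+cocaine. ActReg_22609, on chromosome 14 from 22040435 to 22040792, scored 74 in WIN, 92 in cocaine and 88 in WIN+cocaine, with the 3 summits at one position. ActReg_9258, on chromosome 1 from 274030791 to 274031121, scored 79 in WIN, 77 in cocaine and 84 in WIN+cocaine. In these 6 regions no drug-treated library stood apart from the others in the same direction throughout: WIN had the lowest score in 3 of them, tied for lowest in 1, and had the highest in 1.

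All 6 lay within 4 kb of a control interval. ActReg_14801 was 167 bp from a control interval with a score of 387, in a neighbouring region that scored 345 in WIN, 423 in cocaine and 420 in WIN+cocaine. ActReg_35150 was 219 bp from a control interval with a score of 77, and that neighbouring region, ActReg_35149, had a cocaine interval with a score of 81 and no WIN or WIN+cocaine interval. ActReg_92574 was 502 bp from a control interval with a score of 95. The other 3 lay 2010, 2466 and 3570 bp away from control intervals scored 276, 83 and 101. Of the 6 neighbouring regions, 5 were open in all 4 libraries.

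A further 2 members were singled out after their values were seen, for the highest score in any single library. ActReg_42281, on chromosome 19 from 27979665 to 27980051, scored 72 in WIN, 188 in cocaine and 206 in WIN+cocaine. Its ranks were 82.9, 97.3 and 98.1, its 3 summits lay at the same position, and the nearest control interval was 33593 bp away. No other member had a score this high in any library. ActReg_27073, on chromosome 15 from 28404764 to 28405166, scored 70 in WIN, 101 in cocaine and 124 in WIN+cocaine, with a control interval 1326 bp away. In both, WIN had the lowest score and WIN+cocaine the highest.

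**Figure D2:**
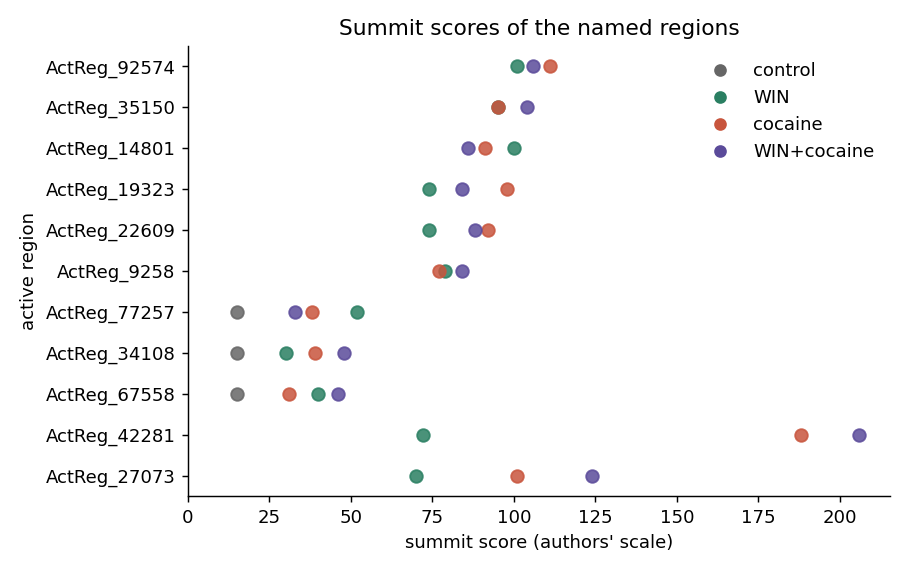
Summit score on the authors' scale (x axis) of 11 named active regions (y axis), with 1 point for each library that has an interval. The 6 members at the top have no control point and lie between 74 and 111, the 3 regions below them have all 4 libraries with control at 15, and the last 2 are the members with the highest single scores, ActReg_42281 reaching 206.

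The edges of the class were close to the lowest scores in the tracks. The members with the lowest rank in any drug-treated library were ActReg_58572 on chromosome 3 (14 in WIN, 25 in cocaine, 23 in WIN+cocaine) and ActReg_43847 on chromosome 2 (20, 15 and 18 in that order). The next value was shared by 6 members, of which ActReg_3537 on chromosome 1 (17, 22 and 15) comes first in the track. Just outside the class were 10 regions of all 4 libraries with a control score of 15, the lowest found in such regions. Their median scores were 30.5 in WIN, 32 in cocaine and 31.5 in WIN+cocaine, and in 4 of the 10 each drug-treated score was above the members' median for that library. The 3 given here had the highest value of their weakest drug-treated rank among the 10. ActReg_77257 on chromosome 6 scored 52 in WIN, 38 in cocaine and 33 in WIN+cocaine. ActReg_34108 on chromosome 17 scored 30, 39 and 48, and ActReg_67558 on chromosome 4 scored 40, 31 and 46, in the same order. A control interval near the lowest score in its track placed these regions outside the class.

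The strength of a region in the other libraries went with how often the control was missing. Of 54400 regions with intervals in all 3 drug-treated libraries, 8.57% lacked a control interval (Wilson interval 8.34% to 8.81%). Where the lowest of the 3 drug-treated ranks was under 10, 28.7% lacked control (1572 of 5480 regions). That share was 14.8% at ranks of 20 to 30, 6.46% at 40 to 50 and 0.683% at 70 to 80. At ranks of 90 and above it was 0.0178%, a single region of 5613, which is ActReg_92574. The absence of a control interval was thus concentrated where the drug-treated signals were themselves weakest.

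The same calculation with another library left out gives the comparison for this class. Of the regions with intervals in the other 3 libraries, 7.71% lacked WIN (4154 of 53891), 4.8% lacked cocaine (2507 of 52244) and 5.08% lacked WIN+cocaine (2664 of 52401). The class without control was therefore 1.12 times the size of the class without WIN, and 1.86 and 1.75 times the size of the classes without cocaine and without WIN+cocaine. Fewer intervals were called in control and WIN, whose classes were larger: 69639 and 70942, against 76590 in cocaine and 76884 in WIN+cocaine. At ranks under 10 in the weakest of the other 3, the share lacking a library was 28.7% for control, 26.8% for WIN, 19.2% for cocaine and 19.6% for WIN+cocaine. With 1 library a treatment, the spread of such shares between animals is unknown.

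**Figure D3:**
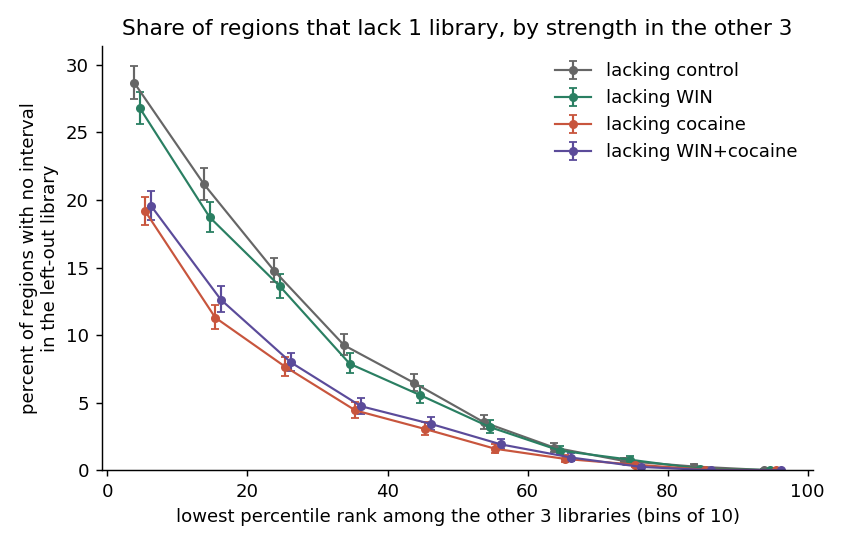
Percentage of regions with no interval in the left-out library (y axis) against the lowest percentile rank among the other 3 libraries (x axis, bins of 10 points); error bars are 95% Wilson intervals and cover counting error only. The share falls from 28.7% to under 1% for control, the curve for WIN follows closely, and those for cocaine and WIN+cocaine start at 19.2% and 19.6%.

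When each library was held to its 69639 highest-scoring intervals, the number in the control library, 3554 regions had the 3 drug-treated libraries and no control. The corresponding classes held 3378 regions without WIN, 2994 without cocaine and 3197 without WIN+cocaine. The class without control was then 1.05, 1.19 and 1.11 times the size of the classes without WIN, without cocaine and without WIN+cocaine. With a score of at least 30 required in every library instead, which leaves the numbers unequal, these ratios were 1.08, 2.35 and 2.18. All 3554 regions from the equal numbers of intervals were among the 4663, since trimming to 69639 keeps every control interval and drops only weak intervals of the others. Held to the 34819 highest-scoring intervals each, the 4 classes held 1597, 1752, 1445 and 1476 regions, and the class without WIN was the largest. Of those 1597 regions, 254 were among the 4663 members. The other 1343 had a control interval that fell below the new limit. The excess of regions lacking control was thus smaller with equal numbers of intervals. With the score limit it was larger against the classes without cocaine and without WIN+cocaine, and smaller against the class without WIN. Of the 3424 regions without control under that limit, 1117 were among the 4663 members. The rest had a control interval scored under 30. The median score over all intervals was 37 in control and WIN and 39 in cocaine and WIN+cocaine, so a fixed limit falls differently on these lists. Trimming to the control's number can only take members away, so the approach of the classes was partly set in advance. The part of the number of calls, of depth and of peak calling was not tested.

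**Figure D4:**
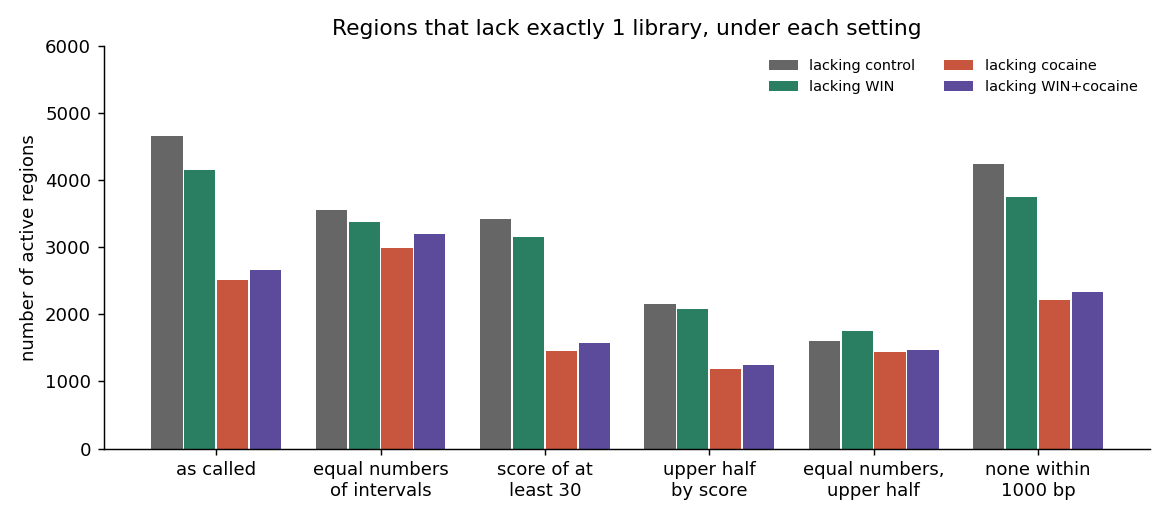
Number of active regions (y axis) that lack exactly 1 library, by the library lacking (colour), as called and under 5 other settings (x axis). The bars for control and WIN stand well above the others as called (4663 and 4154 against 2507 and 2664), and the 4 bars come close together with equal numbers of intervals (3554, 3378, 2994 and 3197).

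Absences tended to fall on the same regions. Of the 8717 regions with cocaine and WIN+cocaine intervals and no control interval, 53.5% also had a WIN interval and so were members. Of the 53891 regions with cocaine, WIN+cocaine and control intervals, 92.3% had a WIN interval. These shares rest on the same calls that chose the members and are a description only. Where the lower of the 2 cocaine ranks was under 10, WIN was present in 44.1% without control and in 71.1% with control. From 25 to 50 these shares were 60.5% and 89.7%. At 75 and above they were 46.2% (43 of 93 regions) and 99.8%. Regions with and without control were not matched for rank within these ranges. Cocaine was present in 69.6% of regions with WIN and WIN+cocaine and no control, and WIN+cocaine in 67.6% of regions with WIN and cocaine and no control, beside 95.2% and 94.9% with control. Over all 30725 regions without a control interval, 57.7% were found in 1 drug-treated library, 27.1% in 2 and 15.2% in all 3. Regions without a WIN interval divided nearly the same way over the other 3 libraries, with 58.9% in 1, 27.0% in 2 and 14.1% in all 3. Of the regions without cocaine 10.3% held all 3 other libraries, and of those without WIN+cocaine 11.1%.

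The members were about as narrow as the other regions lacking 1 library. The active regions of the class ran from 204 to 1158 bp with a median of 351 bp, and the middle 50% lay between 314 and 400 bp. The medians were 347 bp for regions lacking only WIN, 368 bp for those lacking only cocaine and 364.5 bp for those lacking only WIN+cocaine. Regions of all 4 libraries had a median of 484 bp. The individual intervals of the members had medians of 282 bp in WIN, 285 bp in cocaine and 286 bp in WIN+cocaine, beside 358, 337 and 343 bp over all intervals of those libraries. In 4641 of the 4663 members each drug-treated library had exactly 1 interval. The widest member, ActReg_55259 on chromosome 20, was named after its values were seen; its WIN interval of 1122 bp was far wider than its cocaine interval of 487 bp and its WIN+cocaine interval of 264 bp. Together the members covered 4.11% of the bases in active regions.

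Within a member the 3 libraries did not always place the summit at the same point. The 3 summits lay within 32 bp of each other in 1513 members (32.4%) and at one position in 333 (7.14%), with a median spread of 64 bp from first to last. Most summits sit on a 32 bp grid, so this median is 2 grid steps. The stretch shared by all 3 intervals was a median of 63.0% of the active region. Regions lacking WIN alone had 33.2% of their summits within 32 bp and a shared stretch of 63.7%. Regions lacking cocaine alone had 26.4% and 57.9%, and regions of all 4 libraries had 40.9% and 71.2% over the same 3 drug-treated libraries. The members' summits were therefore placed about as closely as those of regions lacking WIN.

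The 3 drug-treated libraries agreed only in part on which members were strong. Across the members, which share libraries and depth and whose scores span a narrow range, Spearman's rho between scores was 0.516 for WIN and cocaine, 0.481 for WIN and WIN+cocaine and 0.539 for cocaine and WIN+cocaine (n = 4663 regions). Across the regions of all 4 libraries, with their wider range of scores, the same values were 0.845, 0.832 and 0.872. A score more than 2-fold apart was rare among the members, in 57, 76 and 46 regions for the 3 pairs (1.22%, 1.63% and 0.986%). It was also rare in the regions of all 4 libraries, at 1.904%, 2.499% and 0.909% in the same order. The members' share was lower for both pairs with WIN and slightly higher for cocaine and WIN+cocaine. The highest agreement was between cocaine and WIN+cocaine, in the members and in the regions of all 4 libraries alike. These libraries share cocaine and also had similar numbers of intervals, 76590 and 76884 against 70942 in WIN. The part of either was not tested.

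WIN was the weakest of the 3 somewhat more often than the others. Its rank was the lowest in 1848 members (39.6%), that of cocaine in 1448 (31.1%) and that of WIN+cocaine in 1367 (29.3%). Put another way, both cocaine-treated libraries ranked above WIN in these same 39.6% of members. Both ranked below WIN in 29.0%. In the regions of all 4 libraries these shares were 41.8% and 29.9%. Both cocaine-treated libraries exceeded WIN by at least 25 rank points in 178 members (3.82%) and fell short of it by as much in 122 (2.62%). In the regions of all 4 libraries these shares were 4.16% and 1.59%. The WIN list is the shortest of the 3, and its part in these ranks was not tested. The median rank difference between WIN+cocaine and cocaine was 0.23 points, and WIN+cocaine ranked above cocaine in 53.0% of members.

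The members were spread over the genome. They made up between 4.10% and 5.40% of the active regions on each of the 21 chromosomes with at least 100 active regions, lowest on chromosome 14 (176 of 4291) and highest on chromosome 3 (343 of 6354). On 20 of these 21 chromosomes the Wilson interval held the overall share of 4.67%; chromosome 3 was the exception, at 4.87% to 5.98%. On the X chromosome, present once in these males, members were 4.12% of active regions (100 of 2428), while regions lacking WIN alone were 5.48% there (133 of 2428), beside 4.16% genome-wide. Chromosome Y had 9 active regions and no member.

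**Figure D5:**
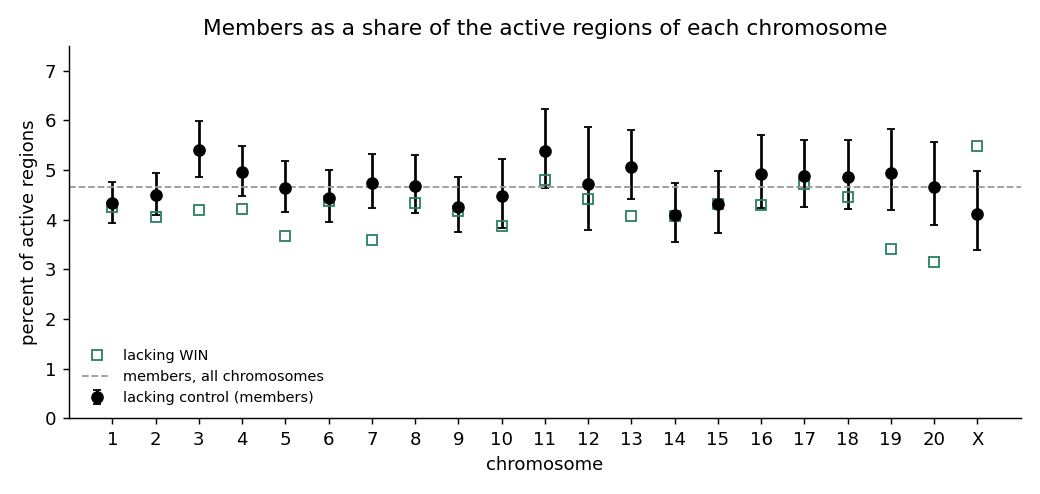
Members as a percentage of the active regions (y axis) of each chromosome with at least 100 active regions (x axis), with 95% Wilson intervals for counting error only; open squares are the regions lacking WIN alone and the dashed line is the members' share over all chromosomes, 4.67%. The members lie between 4.10% and 5.40%, and the X chromosome is where the squares rise above the members most, at 5.48% against 4.12%.

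Members did not gather next to each other. The active region that followed a member was itself a member in 4.78% of cases (223 of 4663), beside a share of 4.67% among all active regions. Most stood alone: 4229 had no member as a direct neighbour, 200 runs held 2 members in a row, 10 held 3 and 1 held 4. That run of 4, ActReg_17688 to ActReg_17691 on chromosome 12 from 50922814 to 51029197, spanned 106383 bp and was made of weak intervals, with scores of 18 to 39. In windows of 1 Mb the largest number of members was 9, reached in 4 windows that each held 65 to 89 active regions.

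The nearest control interval lay a median of 9164 bp from a member, with the middle 50% between 3744 and 19689 bp, and 418 members (8.96%) had one within 1000 bp. Strong members were closer to the control's intervals: 27.1% of the 328 members ranked at 50 or higher in all 3 libraries had one within 1000 bp, against 7.59% of the other 4335. Regions lacking WIN alone behaved alike, with 26.6% of 293 and 8.29% of 3861 within 1000 bp of a WIN interval. The shares were higher in the other classes. They were 47.6% of 147 and 9.41% of 2360 for regions lacking cocaine alone, and 37.7% of 154 and 10.9% of 2510 for those lacking WIN+cocaine alone. The member farthest from a control interval was ActReg_99471 on the X chromosome from 130825336 to 130825743, at 517737 bp, with scores of 17 in WIN, 22 in cocaine and 28 in WIN+cocaine.

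The surroundings of the members were described by their nearest region of all 4 libraries. Such a neighbour holds a control interval by definition, so places where control fell below the caller's threshold do not enter. Within 10 kb, centre to centre, 1795 members had such a neighbour, 1755 different regions in all. In these the control rank was lower than the mean of the 3 drug-treated ranks in 51.8%, with a median difference of -0.26 rank points. Over all 49737 regions of 4 libraries the control rank was lower in 54.2%, with a median difference of -0.50. These values say nothing of the control signal at the members themselves.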

How the data were processed

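Per the labels' protocols, nuclei from flash frozen prefrontal cortex were tagmented with a Nextera kit. BWA was used with MACS2 2.1.0, per the submitters' processing notes. Neither a shift of insertion sites nor a genome build is stated there. The authors deposited a whole-number score at each summit, the start and end of each interval per library, and active regions over the 4 libraries; how the score was scaled is not stated. The active regions were identical to a merge of all intervals that overlap by 1 bp or more (99896 of 99896). Every interval lay inside 1 active region. Each region was given the best-scoring interval of each library, and ranks were taken within a library. Python 3.11.15, pandas 2.3.3 and scipy 1.17.1 were used, and the assignment was tested on simulated tracks. Read depth is unknown, and intervals on shares cover counting error only.

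The members and the descriptions were chosen with earlier results of these data known. Named regions were the 6 with the highest and the 3 with the lowest value of their weakest drug-treated rank (ties by order in the track, which chose 1 of 6 tied for the third lowest place), the 3 regions of all 4 libraries with the lowest control score (ties by the highest weakest drug-treated rank), and the member farthest from control. The 18 RNA libraries were not used here, since no annotation ties their genes to the tracks; the planned RNA comparison and motif search were not run.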

Additional observations from a re-analysis of the deposited data

How the results depend on the processing

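The number of members was 3554 with equal numbers of intervals, 3424 with a score of at least 30 in every library, and 4245 with no control interval within 1000 bp. These counts lay within 1.5 times of 4663. The count was 4663 with merged regions, with 50% of an interval required inside the region, and without chromosome Y. Those settings could not change it: the merged regions were identical, every interval lay inside 1 active region, and chromosome Y had no member. Settings that drop weak intervals moved the values by their own construction. With equal numbers the members' median scores were 29 in WIN, 32 in cocaine and 32 in WIN+cocaine. With a score of at least 30 they were 37, 40 and 40, the median width was 402 bp, and 1460 regions lacked cocaine alone and 1573 WIN+cocaine alone; 1117 of these 3424 were members as first defined. The 2 remaining settings were chosen after the data were examined. Within the upper 50% of each library's intervals, 2149 regions lacked only control, 2083 only WIN, 1192 only cocaine and 1239 only WIN+cocaine. The median scores of the 2149 were 45, 50 and 50 and their median width was 437 bp. Of the 2149, 332 were members as first defined and 1817 had a control interval in the lower 50% of its list. With the 34819 highest-scoring intervals of each library, the counts were 1597, 1752, 1445 and 1476, the median scores 46, 53 and 52, and the width 440 bp. No paired analysis was possible because each treatment has 1 ATAC library. The RNA comparison with its 4 alternatives was not run. Without replicates, and with no signal below the caller's limit, a difference between treatments could not be assessed.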
